A study of Mus musculus with 14 samples.

Results

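The D-type cyclins (Ccnd1, Ccnd2, Ccnd3), their kinase partners (Cdk4, Cdk6) and the retinoblastoma family (Rb1, Rbl1, Rbl2) were followed through the earliest steps of mouse T cell development and in 2 T cell leukemias. Their probes were found on a 1-colour Agilent expression array by matching each probe's transcript accession to RefSeq gene symbols, since the scanner files used here carry no gene name column. This gave 12 probes for the 8 genes, of 55681 probes and 20972 named genes on the array, and all 12 passed the filter of being well above background on at least 2 of 14 arrays. Cdk4 had 3 probes, Ccnd3 and Rbl1 had 2 each, and the other genes had 1; each gene is described by its brightest probe unless another is named. All values are log2 levels relative to the 75th percentile of processed intensity on the same array, so a level of 0 equals that percentile, and levels of different genes are not set against each other.

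The study asked what loss of the histone methyltransferase Ezh2 and of p53 does to early thymocytes and to the leukemia that follows. Bone marrow of C57BL/6 mice with the genotypes Ezh2flox/flox;p53flox/flox;Cre-ERT2, p53flox/flox;Cre-ERT2, Ezh2flox/flox;Cre-ERT2 and Cre-ERT2 was transplanted into lethally irradiated CD45.1+ recipients, and the floxed genes were deleted 4 weeks later. Every group, the one labelled WT included, thus carries the inducible Cre and was grown in an irradiated host, and the deletion was not limited to T lineage cells. At 3 months after transplantation CD4-CD8- thymocytes were sorted into 3 stages: DN1 cells carry CD44 but not CD25, DN2 cells carry both, and DN3 cells have lost CD44 and keep CD25. This gave 1 array per genotype and stage: 3 arrays each for double-deleted (Ezh2Δ/Δp53Δ/Δ), p53-deleted, Ezh2-deleted and WT cells. The other 2 arrays hold leukemic cells of the DN2 phenotype from mice 13 and 19, both double-deleted, called ETP-ALL (early T cell precursor acute lymphoblastic leukemia); no time is given for them. A label speaks of sorted bone marrow cells where the design and the sample names speak of thymus, and the sort gates name no marker that separates donor from host cells. The labels do not tell whether separate animals supplied the stages of one genotype, so p-values measure only the spread between these samples.

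D-type cyclins bind CDK4 or CDK6 in response to outside signals, and the active kinase phosphorylates RB1 and its relatives p107 (Rbl1) and p130 (Rbl2). Unphosphorylated RB family proteins hold E2F factors in check, and their phosphorylation lets E2F switch on genes of DNA replication. In mouse thymocytes cyclin D3 with CDK4 or CDK6 is known for driving the expansion of immature cells after pre-TCR and Notch signalling, while INK4 inhibitors such as the products of Cdkn2a and Cdkn2b block CDK4 and CDK6, and Cdkn2a and Cdkn2b are classic targets of Ezh2.

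Promoter windows of 250 bases before the annotated start were searched for Ccnd3, Cdk4, Cdk6, Rbl1 and Rbl2; those of Ccnd1, Ccnd2 and Rb1 were not analysed here. Sequence is shown for the 4 searched members whose window holds a motif, so that the motif can be seen in its place. The sequences are from RefSeq on GRCm38.p6 and are written 5′ to 3′ on the strand of the gene, with motif letters in capitals. Searched on both strands were the E2F motif (TTTCCCGC, TTTCGCGC, TTTGCCGC or TTTGGCGC), the CHR element (TTTGAA or TTCGAA), which the DREAM complex of p107 or p130 with MuvB reads, and the E-box CACGTG, which MYC family factors bind and which reads the same on both strands; the motifs do not overlap one another.
Cdk4 (chr10:127063285-127063534, + strand): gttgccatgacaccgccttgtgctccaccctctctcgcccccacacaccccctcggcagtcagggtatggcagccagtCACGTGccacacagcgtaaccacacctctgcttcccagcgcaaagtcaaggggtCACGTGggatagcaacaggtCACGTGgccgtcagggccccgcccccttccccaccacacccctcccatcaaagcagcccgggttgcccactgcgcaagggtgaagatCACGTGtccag
Cdk6 (chr5:3343643-3343892, + strand): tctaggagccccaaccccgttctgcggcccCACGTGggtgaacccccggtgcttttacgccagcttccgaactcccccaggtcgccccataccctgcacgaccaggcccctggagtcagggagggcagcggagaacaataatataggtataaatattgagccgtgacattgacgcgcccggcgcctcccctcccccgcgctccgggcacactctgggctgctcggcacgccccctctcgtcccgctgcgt
Rbl1 (chr2:157204535-157204784, - strand): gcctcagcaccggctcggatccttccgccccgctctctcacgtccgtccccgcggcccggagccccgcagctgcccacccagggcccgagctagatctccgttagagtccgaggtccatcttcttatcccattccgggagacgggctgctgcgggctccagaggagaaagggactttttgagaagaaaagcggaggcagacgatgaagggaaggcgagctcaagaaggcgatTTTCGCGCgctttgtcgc
Rbl2 (chr8:91069807-91070056, + strand): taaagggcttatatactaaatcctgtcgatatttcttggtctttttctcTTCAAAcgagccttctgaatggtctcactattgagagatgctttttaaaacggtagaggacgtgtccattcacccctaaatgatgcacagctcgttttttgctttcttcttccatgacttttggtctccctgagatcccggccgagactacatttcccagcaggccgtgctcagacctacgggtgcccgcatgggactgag
The Cdk4 window holds 4 E-boxes, starting at -172, -118, -98 and -11 from the start site. Cdk6 has 1 E-box at -220, Rbl1 has 1 E2F motif at -18, and Rbl2 has 1 CHR element at -201, on the other strand, so that it reads TTCAAA here. Of 32851 mouse promoter windows of this length, 6.02% hold an E-box, 1.86% an E2F motif and 17.1% a CHR element. Ccnd3 has 2 annotated starts, and neither window holds any of these letters.

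The arrays were not evenly bright. The 6 arrays of p53-deleted and Ezh2-deleted cells were hybridised together on slide 2, and their 75th percentile of processed intensity was 61.3 to 123, against 271 to 524 on the other 8 arrays. Slide 1 held double-deleted DN2 and DN3 and all WT cells, slide 3 held double-deleted DN1, and slide 4 held both leukemias. Comparisons of p53-deleted or Ezh2-deleted arrays with WT or double-deleted ones, and of leukemic with non-leukemic arrays, therefore cross slides, and genotype or leukemia and slide cannot be told apart; Ezh2-deleted against p53-deleted cells lie within slide 2, and double-deleted against WT cells share slide 1 at DN2 and DN3. The Trp53 probe was not above background on the 3 p53-deleted arrays. It was above background on each double-deleted array and read -3.86, -2.40 and -0.49 across the stages, against 0.11, 1.03 and 1.29 in WT. In the leukemias it was at -5.86 in mouse 13, not above background, and at -3.295 in mouse 19, above it. The Ezh2 probe read 2.36 to 4.43 on all 14 arrays; where it lies relative to the deleted exons is unknown here, and it does not check the label. The markers that part the stages followed the gates: Il2ra (CD25) read 0.52 to 2.59 on DN1 arrays and 5.38 to 7.74 on DN2 and DN3 arrays, and Cd44 read -2.01 to -0.41 on DN3 arrays against 1.25 to 3.70 on DN2 arrays. Cd3e read 5.96 or more on every array, and Cd4, which the gate leaves out, was above background on all 14. Cd8a and Cd8b1, which it also leaves out, were above background on every double-deleted, p53-deleted and WT array.

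Ccnd1, which encodes cyclin D1, was the member that separated double-deleted from p53-deleted cells most. Its level was -1.11, -2.86 and -3.41 from DN1 to DN3 in double-deleted cells, against 0.55, -0.02 and -0.69 in p53-deleted cells. Each double-deleted array lay below every p53-deleted array. In the fit of all probes with limma, Ccnd1 was 2.41 log2 units lower in double-deleted than in p53-deleted cells (log2 difference -2.41, SE 0.57, 5.31-fold lower, adjusted p = 0.0125), with stage-matched differences of -1.65, -2.85 and -2.72 at DN1, DN2 and DN3. The call was lost without p53-deleted DN3 (-2.10, adjusted p = 0.0516) or double-deleted DN2 (-2.32, adjusted p = 0.0526), and background correction by normexp gave -1.64.

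In Ezh2-deleted cells Ccnd1 was at 0.12, -3.52 and -4.12 at DN1, DN2 and DN3, and the DN2 and DN3 values were not above background. Ezh2-deleted DN1 thus lay among the p53-deleted arrays, and the 2 later stages lay far under them. On the shared slide the fitted difference of Ezh2-deleted against p53-deleted cells was -2.45 (SE 0.57, limma adjusted p = 0.0492), a size that rests in part on the 2 values not above background. The call was lost in 10 of 12 repeats that left out 1 array and under 6 of 9 other settings, among them normexp (-0.75, adjusted p = 0.109) and slide 2 alone (adjusted p = 0.217). WT cells had Ccnd1 at -0.17, -0.79 and -2.27, so double-deleted cells were lower at all 3 stages, by -0.93, -2.07 and -1.13. That difference did not pass the test (-1.38, SE 0.57, limma adjusted p = 0.161), and on slide 1 alone it was -1.60 (adjusted p = 0.141). It passed under 1 of 9 other settings (adjusted p = 0.00826) and in 1 of 12 repeats that left out 1 array, that without Ezh2-deleted DN1 (adjusted p = 0.0436). Within each of the 4 genotypes Ccnd1 was lower at DN2 than at DN1, and it was lower again at DN3 in the 3 genotypes where both values were above background. In order of mean level, p53-deleted cells (-0.05 ± 0.62) came first, WT cells (-1.08 ± 1.08) next and double-deleted cells (-2.46 ± 1.20, SD, n = 3 each) after them; the SDs span 3 stages, and neighbours in this order overlapped. Ezh2-deleted cells have no place in it, since 2 of their 3 values were not above background.

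Ccnd2, the cyclin D2 gene, had its highest mean level among the non-leukemic genotypes in Ezh2-deleted cells. Its level was 5.74, 4.72 and 4.90 from DN1 to DN3 in Ezh2-deleted cells, against 4.62, 3.76 and 3.98 in WT cells. The groups did not overlap, and the excess was much the same at each stage (1.13, 0.97 and 0.93). Ccnd2 rose by 1.01 in Ezh2-deleted cells (SE 0.26, 2.01-fold, limma adjusted p = 0.0173). Scaled on probes detected on all arrays the difference was 0.78 (adjusted p = 0.0710), and with normexp it was 0.44 (adjusted p = 0.149), and neither passed. p53-deleted cells had 4.34, 4.38 and 3.78 and lay below all Ezh2-deleted arrays on the same slide; that difference of 0.96 had an adjusted p of 0.0838 in the limma fit. Double-deleted cells had 4.71, 4.0 and 4.48, overlapped both WT and p53-deleted cells, and were 0.28 above WT in the fit (adjusted p = 0.531).

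Ccnd3 encodes cyclin D3, the D cyclin that immature thymocytes depend on. Across DN1, DN2 and DN3 it had 7.27, 6.92 and 7.33 in p53-deleted cells, against 5.89, 6.56 and 6.46 in WT cells. No array of the 2 groups overlapped, and Ccnd3 rose by 0.87 (SE 0.26, 1.83-fold, limma adjusted p = 0.0291); its second probe gave 1.08 (adjusted p = 0.0157). The call of the brighter probe was lost without WT DN1, WT DN2, p53-deleted DN1 or p53-deleted DN3. Double-deleted cells had 6.89, 7.10 and 6.84, and Ezh2-deleted cells had 6.86, 7.43 and 6.78. All 9 arrays of deleted genotypes thus lay above the 3 WT arrays, yet the differences from WT were not called in double-deleted (0.64, limma adjusted p = 0.160) or Ezh2-deleted cells (0.72, adjusted p = 0.0595). With normexp the 0.79 of double-deleted cells passed (adjusted p = 0.0164).

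**Figure D1:**
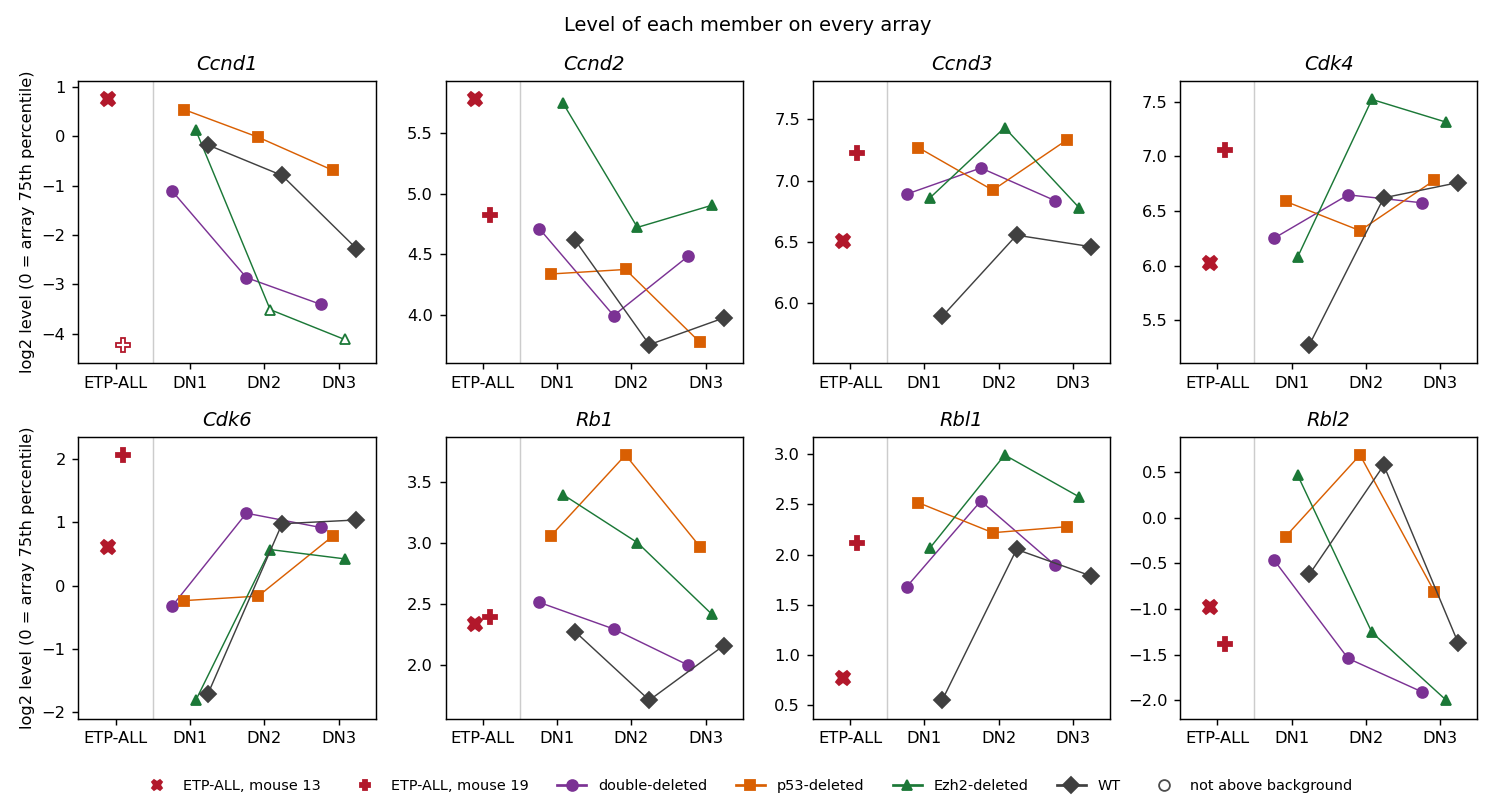
Log2 level of the brightest probe of each of the 8 genes on all 14 arrays, relative to the array's 75th percentile (vertical axis), for the leukemias and by stage (horizontal axis), with 1 symbol per genotype or leukemia and lines joining the stages of a genotype; open symbols are values not above background. Ccnd1 was lower at DN2 than at DN1 in each genotype, and Cdk6 at DN1 was below 0 in all 4.

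Cdk4, the kinase partner whose promoter carries 4 E-boxes, read 6.25, 6.65 and 6.57 at DN1, DN2 and DN3 in double-deleted cells. It read 6.59, 6.32 and 6.78 in p53-deleted cells and 6.08, 7.52 and 7.31 in Ezh2-deleted cells, against 5.28, 6.62 and 6.76 in WT cells. WT DN1 was the lowest of the 12 non-leukemic arrays, and Ezh2-deleted DN2 and DN3 were the highest. The brightest probe gave no call for any genotype, with 0.75 for Ezh2-deleted against WT cells (SE 0.34, limma adjusted p = 0.120). A second probe, A_55_P1998188, was called in that comparison (1.26, 2.39-fold, adjusted p = 0.0222), a call lost in 4 of 12 repeats that left out 1 array. This probe was also lower in double-deleted than in Ezh2-deleted cells (-1.05, adjusted p = 0.0479). That call was lost in 8 of 12 such repeats and under 2 of 6 other settings. The third probe gave 0.92 for Ezh2-deleted against WT cells (adjusted p = 0.0710).

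Cdk6, which pairs with the same cyclins and is abundant in lymphoid cells, was lower at DN1 than at DN2 in each genotype, though by only 0.07 in p53-deleted cells. That step was not called (limma adjusted p = 0.0908). At DN1, DN2 and DN3 it had -0.33, 1.14 and 0.92 in double-deleted cells and -0.24, -0.17 and 0.78 in p53-deleted cells. Ezh2-deleted cells had -1.82, 0.57 and 0.42, and WT cells had -1.72, 0.98 and 1.04. DN1 arrays with p53 intact were thus the lowest, and p53-deleted DN2 was the only DN2 array below 0. No genotype comparison called Cdk6: the fitted difference from WT was 0.48 in double-deleted, 0.03 in p53-deleted and -0.37 in Ezh2-deleted cells, each with SE 0.45. Mean levels by genotype ran from 0.58 ± 0.79 in double-deleted to -0.27 ± 1.34 in Ezh2-deleted cells (SD, n = 3), and all neighbours overlapped.

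Rb1, the retinoblastoma gene itself, read 2.51, 2.30 and 2.0 at DN1, DN2 and DN3 in double-deleted cells. It read 3.06, 3.72 and 2.97 in p53-deleted and 3.39, 3.00 and 2.42 in Ezh2-deleted cells, against 2.28, 1.71 and 2.16 in WT cells. The p53-deleted and Ezh2-deleted arrays lay above all WT arrays, and the p53-deleted ones also lay above all double-deleted arrays. Rb1 rose in p53-deleted cells by 1.20 (SE 0.29, 2.30-fold, limma adjusted p = 0.0128) and in Ezh2-deleted cells by 0.89 (1.85-fold, adjusted p = 0.0445), both against WT. It was 0.98 lower in double-deleted than in p53-deleted cells (log2 difference -0.98, 1.97-fold lower, limma adjusted p = 0.0332). These 3 calls all set slide 2 against other slides: the 6 arrays of slide 2 read 2.42 to 3.72 and the 8 others 1.71 to 2.51. The Rb1 probe is printed 10 times per array, and the coefficient of variation over its spots was 2.13% to 5.23%. Without WT DN2 the p53-deleted difference was 0.94 (adjusted p = 0.0642), the Ezh2-deleted call was lost in 9 of 12 repeats that left out 1 array, and the double-deleted call was lost in 5.

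Rbl1, the p107 gene, had 2.07, 3.00 and 2.58 at DN1, DN2 and DN3 in Ezh2-deleted cells, against 0.54, 2.05 and 1.79 in WT cells. WT DN1 was the lowest array, and the groups did not overlap, though Ezh2-deleted DN1 lay just above WT DN2. Rbl1 rose by 1.09 (SE 0.33, 2.13-fold, limma adjusted p = 0.0321). Its second probe, on another transcript accession, gave 0.35 (adjusted p = 0.433), and the call was lost in 5 of 12 repeats that left out 1 array. p53-deleted cells had 2.52, 2.22 and 2.28 and differed from WT by 0.88 (adjusted p = 0.0656, limma), and double-deleted cells had 1.68, 2.54 and 1.89 and differed by 0.57. The excess over WT was greatest at DN1 in both (1.98 in p53-deleted and 1.13 in double-deleted cells).

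Rbl2, the p130 gene, is known as the family member of resting cells. Its levels at DN1, DN2 and DN3 were -0.46, -1.54 and -1.91 in double-deleted cells and -0.21, 0.69 and -0.81 in p53-deleted cells. Ezh2-deleted cells had 0.47, -1.25 and -2.0, and WT cells had -0.62, 0.58 and -1.37. Rbl2 was thus low at DN2 where Ezh2 was deleted and at its highest there where Ezh2 was intact: the DN2 difference was -2.23 for double-deleted against p53-deleted, -2.12 for double-deleted against WT and -1.83 for Ezh2-deleted against WT cells. These are differences of 1 array each. Over the 3 stages none was called (limma adjusted p = 0.113 for double-deleted against p53-deleted cells, -1.20).

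**Figure D2:**
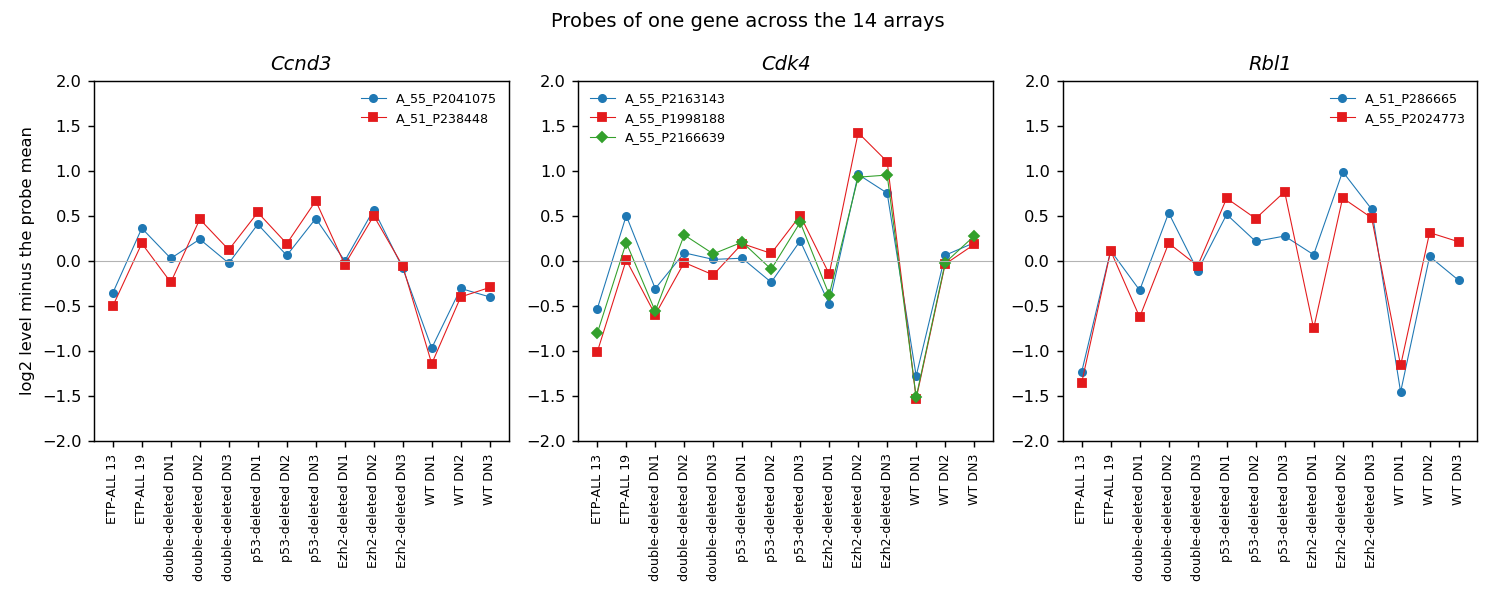
Log2 level of every probe of Ccnd3, Cdk4 and Rbl1 minus that probe's mean (vertical axis) on the 14 arrays (horizontal axis). The correlation between probes of one gene over the arrays was 0.955 for Ccnd3, 0.921 to 0.963 for Cdk4 and 0.864 for Rbl1 (Pearson r).

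The number of members called in each comparison has to be read against how many probes of the whole array were called. Calls throughout are Benjamini-Hochberg adjusted p under 0.05 over 31499 tested probes. In double-deleted against WT cells 0 of 8 genes were called by limma, against 6.88% of all probes; 2 genes had unadjusted p under 0.05, and Ccnd3 was the only gene whose groups did not overlap. Over the 14222 named genes tested, each by its brightest probe, 23.5% had unadjusted p under 0.05 and 26.8% had groups that did not overlap. The median of the 8 differences was 0.28, against -0.07 over all probes.

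In Ezh2-deleted against WT cells 3 of 8 genes were called, all higher (Ccnd2, Rb1, Rbl1), against 34.6% of all probes called and 17.8% called higher. Groups did not overlap for 4 genes, and for 38.2% of all named genes tested. In p53-deleted against WT cells 2 genes were called, both higher (Ccnd3, Rb1), against 36.3% of all probes and 17.4% higher; groups did not overlap for 3 genes, and for 42.2% of all named genes, and all 8 differences were positive, as were 61.4% of all. The medians of the members were 0.74 and 0.62 in these 2 comparisons, against 0.19 and 0.13 over all probes. Scaled on probes detected on all arrays, the medians of all probes were -0.04 and 0.03; with normexp they were 0.36 and 0.29. The shares of members called in either direction lie near those of the whole array, so these counts are not a result about the 8 genes.

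In double-deleted against p53-deleted cells 2 genes were called, both lower (Ccnd1, Rb1), against 31.6% of all probes and 16% lower, and the groups of these 2 did not overlap, as for 49% of all named genes. In double-deleted against Ezh2-deleted cells 0 genes were called by their brightest probe in the limma fit, against 30.6% of all probes, and 2 had unadjusted p under 0.05; 1 gene had groups that did not overlap. Over all named genes the shares were 41.8% and 42%. In Ezh2-deleted against p53-deleted cells 1 gene was called (Ccnd1, lower), against 3.88% of all probes and 1.63% lower. These comparisons share their p53-deleted, Ezh2-deleted or WT arrays with the ones above. Of probes called in the whole array, the share that was higher moved with the scaling: in Ezh2-deleted against WT cells it was 51.5%, but 38.1% scaled on detected probes and 75.4% with normexp, and in double-deleted against WT cells it was 54.7%, 68.8% and 19.1% under these 3 settings. They gave 47.9%, 43.3% and 70.4% in p53-deleted against WT, 49.3%, 54.5% and 24.4% in double-deleted against p53-deleted, and 44.4%, 58.6% and 22.1% in double-deleted against Ezh2-deleted cells, and 28.6%, 50% and 100% of 7, 6 and 1 probes in DN3 against DN2 cells.

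Whether Ezh2 deletion acts differently without p53 was tested as the double-deleted minus p53-deleted difference minus the Ezh2-deleted minus WT difference, a contrast added after the files were seen. For 2 of the 8 members by their brightest probe it was called, both negative, against 45.9% of all probes and 25.9% negative: Rb1 at -1.86 (limma adjusted p = 0.0063) and Rbl1 at -1.39 (adjusted p = 0.0367). The contrast sets slide 2 against slides 1 and 3 throughout, so interaction and slide cannot be told apart.

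**Figure D3:**
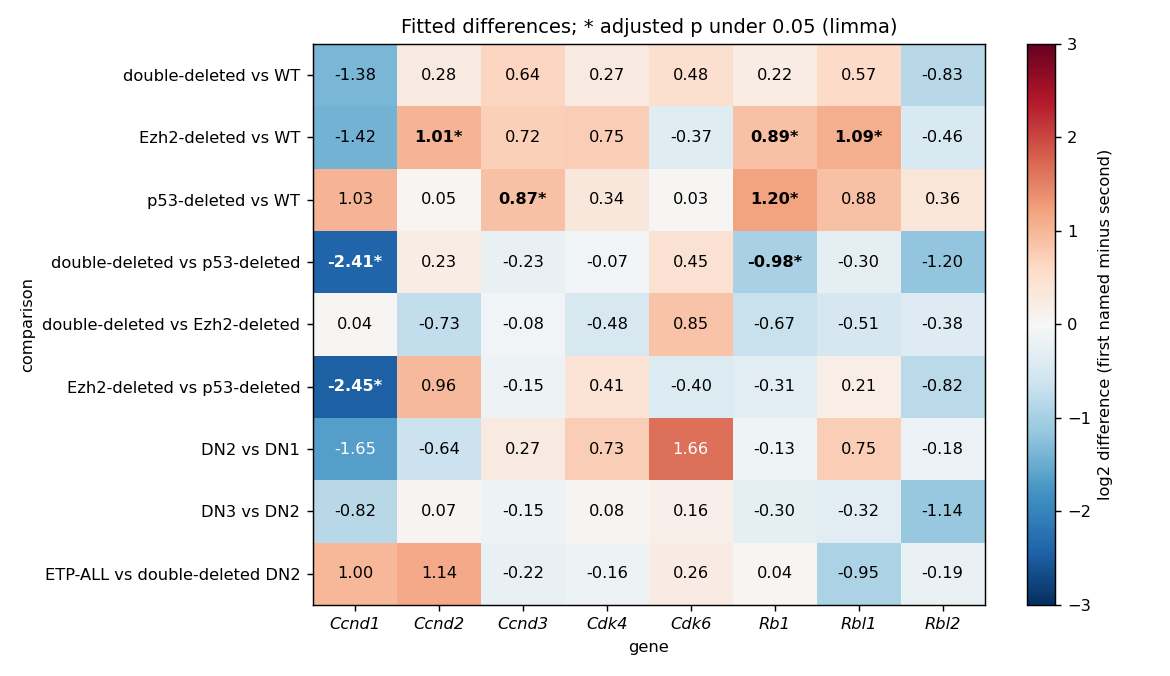
Fitted log2 differences of the 8 genes (brightest probe) in 9 comparisons, as colour and number; a star marks limma adjusted p under 0.05. Stars fall on Ccnd1, Ccnd2, Ccnd3, Rb1 and Rbl1, and none on Cdk4, Cdk6 or Rbl2.

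Markers of other cells that a thymic DN sort can hold moved with the genotypes too. The summed level of 8 NK markers, in units of the array's 75th percentile, lay at 245.5 to 734 in cells lacking both genes, at 193 to 742 with p53 deleted and at 660 to 1183 with Ezh2 deleted, against 131 to 494 in WT cells. Sums of 6 B cell markers were 4.48 to 7.92 (double-deleted), 4.77 to 6.15 (p53-deleted) and 23.1 to 54.5 (Ezh2-deleted), against 8.81 to 13.0 in WT cells. Only 1 of these 6 was above background on each non-leukemic DN2 array and 1 or 2 on DN3 arrays, against 4 or 5 on DN1 arrays. Ezh2-deleted DN2 and DN3, with sums of 23.1 and 31.2, had 1 of 6 above it. For 6 myeloid markers they were 34.9 to 59.9, 19.8 to 27.4 and 22.6 to 113 in those 3 genotypes, against 50.5 to 117.5 in WT cells, and for 6 dendritic cell markers 246 to 266, 152 to 183 and 116 to 244, against 365 to 475. Of 4 thymic stroma markers, Foxn1, the defining factor of thymic epithelium, was not above background on any of the 14 arrays. Still, 1 to 3 of the 4 were above it on each array. Their sums were 0.889 to 1.79 (double-deleted), 1.18 to 1.71 (p53-deleted) and 1.31 to 2.49 (Ezh2-deleted), against 1.07 to 1.75 in WT cells. Of the 8 NK markers, Klrb1c, Klrd1 and Klre1 were not above background on WT and double-deleted DN2 and DN3 arrays. On those arrays 2 to 4 of the 8 were above it. The part of such cells in the differences above was not tested, and in bulk samples fewer cells of a type and less RNA per cell cannot be told apart.

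From DN1 to DN2, Cdk6, Cdk4 and Rbl1 were higher and Ccnd1 and Ccnd2 lower in most genotypes. For Cdk6, DN2 was above DN1 by 1.47 in double-deleted, 0.07 in p53-deleted, 2.39 in Ezh2-deleted and 2.70 in WT cells. For Cdk4 the 4 differences were 0.40, -0.27, 1.44 and 1.34, and for Rbl1 they were 0.86, -0.30, 0.93 and 1.51, with the genotypes in the same order. In the p53-deleted pair of arrays the step was thus near 0 or slightly negative for these 3 genes. Averaged over the genotypes, Cdk6 differed by 1.66 (SE 0.39, limma adjusted p = 0.0908), Ccnd1 by -1.65 (adjusted p = 0.147), Cdk4 by 0.73 (adjusted p = 0.220), Rbl1 by 0.75 (adjusted p = 0.201) and Ccnd2 by -0.64 (adjusted p = 0.183).

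In DN2 against DN1, 0 of 8 members were called by limma, against 1.32% of all probes, and 5 had unadjusted p under 0.05, against 22.9% of all named genes. Cdk6 alone did not overlap, against 2.68% of all. Here 2 arrays decide the calls. Without p53-deleted DN1, 3 members passed: Cdk6 at 2.06 (adjusted p = 0.0188), Ccnd1 at -2.03 (adjusted p = 0.0416) and Rbl1 at 1.04 (adjusted p = 0.0389), with 3290 probes called in place of 415. Without p53-deleted DN2, 2 passed by their brightest probe, Cdk6 at 2.05 (adjusted p = 0.0147) and Ccnd2 at -0.87 (adjusted p = 0.0410), with 2196 probes called. The second Rbl1 probe passed as well (1.13, limma adjusted p = 0.0499). Within slide 1 Cdk6 differed by 2.77 (adjusted p = 0.0508) and within slide 2 by 1.23 (adjusted p = 0.911).

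The p53-deleted DN2 array stood apart from the other DN2 arrays in markers of other lymphocytes: all 8 NK markers were above background there, against 3 to 5 elsewhere, although their summed level of 193 was within the range of the other DN2 arrays (131 in WT, 248 in double-deleted and 660 in Ezh2-deleted cells). By contrast, 4 gamma delta T cell markers summed to 14.6, against 2.63 to 4.83. At DN1 the order was the reverse: these markers summed to 3.26 in p53-deleted cells, against 11.6 in double-deleted, 23.6 in Ezh2-deleted and 15.3 in WT cells. Klrb1c (NK1.1) read 0.79 on p53-deleted DN2, and was -0.88 or lower on the DN2 arrays of double-deleted, Ezh2-deleted and WT cells. Il23r, a gene of type 17 innate-like T cells, read 1.42 there and -0.95 or lower on those arrays. Cd44 was 3.70 there, above p53-deleted DN1 (2.86), whereas in the other 3 genotypes DN2 was below DN1. Over all genotypes the 8 NK markers summed to 131 to 660 at DN2, against 494 to 1183 at DN1. The part of these cells in the stage differences was not tested.

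**Figure D4:**
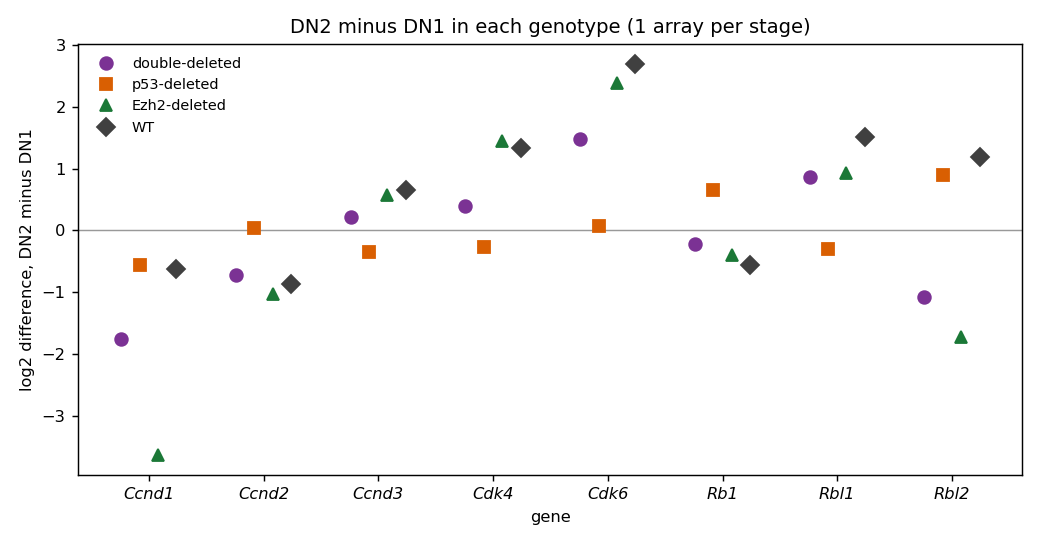
Difference in log2 level between DN2 and DN1 (DN2 minus DN1, vertical axis) for each of the 8 genes (horizontal axis), with 1 symbol per genotype. Cdk6, Cdk4 and Rbl1 lie above 0 in double-deleted, Ezh2-deleted and WT cells; in p53-deleted cells Cdk6 is at 0.07 and the other 2 are below 0.

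Part of the contrast of double-deleted and p53-deleted with WT cells in this step lay at DN1. In DN1 cells the difference from WT was 0.97 for Cdk4, 1.40 for Cdk6, 1.13 for Rbl1 and 1.00 for Ccnd3 in double-deleted cells. In p53-deleted DN1 cells it was 1.31 for Cdk4, 1.48 for Cdk6, 1.98 for Rbl1 and 1.38 for Ccnd3. Ezh2-deleted DN1 cells differed from WT by -0.09 for Cdk6, 1.53 for Rbl1 and 0.97 for Ccnd3, and their Cdk4 read 6.08, against 5.28 in WT. These are single arrays with no replicate, and WT DN1 was the lowest non-leukemic array for Cdk4, Ccnd3 and Rbl1.

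No member passed the test between DN2 and DN3. In DN3 against DN2, 0 of 8 were called by limma, against 0.0222% of all probes, and Rbl2 alone had an unadjusted p under 0.05, against 7.56% of all named genes. Rbl2 was lower at DN3 in all 4 genotypes, by -0.37 in double-deleted, -1.50 in p53-deleted, -0.74 in Ezh2-deleted and -1.94 in WT cells (fitted -1.14, adjusted p = 0.717). The fitted differences of the other 7 genes lay between -0.82 (Ccnd1) and 0.16 (Cdk6).

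The 2 leukemias were unlike each other in these genes. Ccnd1 was 0.75 in the leukemia of mouse 13 and not above background in that of mouse 19, against -2.86 in double-deleted DN2 cells. Cdk6 was 0.60 in mouse 13 and 2.07 in mouse 19, against 1.14 in double-deleted DN2 cells, so the 2 leukemias lay on either side. Mouse 13 was also below mouse 19 for Cdk4 (6.02 and 7.06), Ccnd3 (6.50 and 7.22) and Rbl1 (0.77 and 2.12), against 6.65, 7.10 and 2.54 in double-deleted DN2 cells. Ccnd2 was high in both, at 5.78 in mouse 13 and 4.83 in mouse 19, against 4.0 in double-deleted DN2 cells. The fitted difference, taken from the double-deleted DN2 level that genotype and stage terms estimate, was 1.14 and did not pass the test (limma adjusted p = 0.155). Rb1 (2.33 and 2.39, against 2.30) hardly differed, and Rbl2 was -0.98 and -1.38, against -1.54.

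Of the 8 members 0 were called in ETP-ALL against double-deleted DN2 cells by limma, against 2.38% of all probes; 1 had an unadjusted p under 0.05, against 18.2% of all named genes, and 4 did not overlap, against 72.1%. The fit sets the leukemias against the double-deleted DN2 level estimated from additive genotype and stage terms, with the spread assumed alike in all groups. The overlap count sets them against the 1 double-deleted DN2 array. The leukemias lie alone on slide 4. The NK markers summed to 1009 and 1021 in the leukemias, against 248 in double-deleted DN2 cells, and their part was not tested.

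Among 20 replication genes that E2F factors drive, which act where RB family control ends, the step from DN1 to DN2 was split in the same way as for Cdk4 and Rbl1. All 20 were higher at DN2 in double-deleted (median difference 0.91), Ezh2-deleted (1.98) and WT cells (2.45), and 2 of 20 in p53-deleted cells (median -0.23), where the highest difference was 0.08 for Cdc6, a replication licensing factor. The medians of all probes were 0.10 in double-deleted, 0.29 in Ezh2-deleted, 0.10 in WT and -0.00 in p53-deleted cells. Fitted over the genotypes 0 of 20 were called by limma, against 1.32% of all probes, with adjusted p of at most 0.206 (Chaf1a, a histone chaperone subunit). All 20 had unadjusted p under 0.05, against 22.9% of all named genes. At DN1, 19 of 20 were above WT in both double-deleted and p53-deleted cells (median 1.73 in each), and 17 in Ezh2-deleted cells (median 1.02). At DN2 the count was 13 in double-deleted (median 0.12), 2 in p53-deleted (median -0.88) and 15 in Ezh2-deleted cells (median 0.58).

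Against double-deleted DN2 cells, 0 of the 20 replication genes were higher in the leukemia of mouse 13 (median -2.06) and 3 in that of mouse 19 (median -0.44). The fitted median was -1.42, against -0.03 over all probes. By limma 0 of 20 were called, against 2.38% of all probes, and 7 had unadjusted p under 0.05, against 18.2% of all named genes. Cdc45, a part of the replicative helicase, had -1.87 (adjusted p = 0.0805). In genotype comparisons 1 of 20 was called in Ezh2-deleted against WT and 1 in double-deleted against p53-deleted cells, far under the 34.6% and 31.6% of all probes: Rrm2, a subunit of ribonucleotide reductase, rose by 1.70 in Ezh2-deleted against WT cells, and Mcm2, another helicase subunit, was 1.52 higher in double-deleted than in p53-deleted cells. Each count by stage rests on 1 pair of arrays and carries no test.

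**Figure D5:**
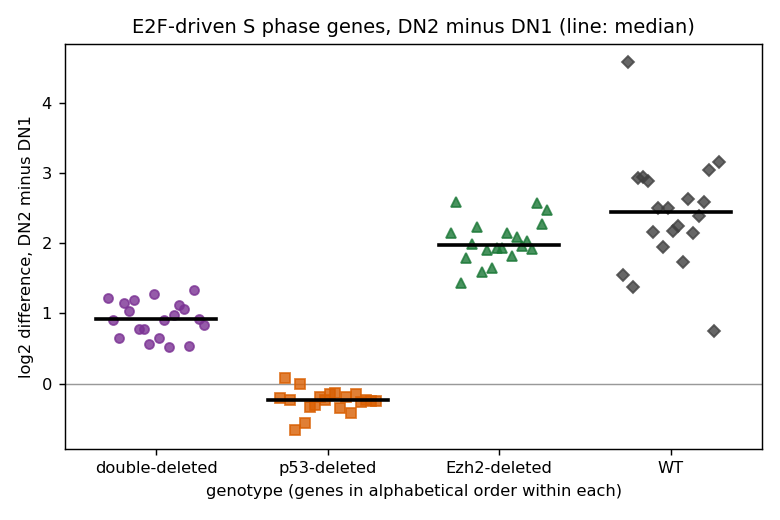
DN2 minus DN1 difference in log2 level (vertical axis) of 20 E2F-driven replication genes in each genotype, with 1 point per gene and a line at the median. Medians are 0.91 in double-deleted, -0.23 in p53-deleted, 1.98 in Ezh2-deleted and 2.45 in WT cells.

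Of the 10 E2F and DP genes, the DN2 minus DN1 difference was positive for 9 in double-deleted, 3 in p53-deleted, 10 in Ezh2-deleted and 9 in WT cells. By genotype 3 of 10 were called in Ezh2-deleted against WT cells, near the 34.6% of all probes, and 2 in p53-deleted against WT cells, against 36.3%. In Ezh2-deleted against WT cells E2f3, an activating E2F, rose by 1.08 and 2 genes fell (E2f4, E2f5), and in p53-deleted against WT cells the same pair fell. E2f4, a repressor that pairs with p107 and p130, was not above background on any of the 6 arrays of slide 2 and was above it on all 8 others, so this change follows the slide exactly. Set against the lowest reliable signal of the dim arrays, it was at least 14.5-fold lower in Ezh2-deleted and at least 17.1-fold lower in p53-deleted than in WT cells. E2f5, of the same kind, was at -1.23 in Ezh2-deleted cells, relative to WT. In double-deleted against p53-deleted cells 3 of 10 were called, all higher, against 31.6% of all probes and 15.6% higher. Among them E2f6, a repressor that acts without RB proteins, was 1.95 higher.

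Cyclin E, cyclin A and Cdk2, which act next to cyclin D in the G1 to S step, gave no call in any of the 9 comparisons by limma. In these comparisons 0.0222% to 36.3% of all probes were called. Of the 3 of 4 genes tested, 2 had unadjusted p under 0.05 in DN2 against DN1, against 22.9% of all named genes, and 0 in the others. In the MuvB core, the partner of p107 and p130 in DREAM, 1 of 5 genes was called, Lin54, which was 0.62 higher in p53-deleted than in WT cells. Of all probes 36.3% were called in that comparison, 17.4% higher. Of the 4 INK4 inhibitors of CDK4 and CDK6, 2 were called higher than WT in double-deleted cells and 3 each in p53-deleted and Ezh2-deleted cells, against 6.88%, 36.3% and 34.6% of all probes. Cdkn2a and Cdkn2b were called in all 3 comparisons but were above background on only 1 of 3 WT arrays, so no size is given for them; Cdkn2c was 1.05 higher in p53-deleted and 0.92 higher in Ezh2-deleted than in WT cells. Of the 3 CIP/KIP inhibitors (Cdkn1a, Cdkn1b, Cdkn1c), 1 was called higher than WT in each of these comparisons, against the same shares. Another was called lower in Ezh2-deleted than in WT cells. Cdkn1c (p57) rose by 3.24 in double-deleted, 2.64 in p53-deleted and 1.47 in Ezh2-deleted cells. In DN2 against DN1, 1 of the 3 was called, against 1.32% of all probes: Cdkn1a (p21) was 2.72 higher at DN2 (adjusted p = 0.00202, limma).

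Among 15 genes that set D cyclin transcription or stability, 2 were called in double-deleted against WT cells: Bmi1, a Polycomb protein that represses Cdkn2a, rose by 1.83, and Fbxo31, an F-box protein that targets cyclin D1 after DNA damage, was at -1.21. Against 6.88% of all probes this is 2 of 15. In the next 3 comparisons, 5, 5 and 6 of 15 were called, near the 34.6%, 36.3% and 31.6% of all probes. In Ezh2-deleted against WT cells 4 were higher and 1 lower, among them Fbxo4 (1.38), another cyclin D1 ligase subunit, Gsk3b (1.23), the kinase that marks cyclin D1 for export and breakdown, Bmi1 (1.22) and Fbxo31 (-1.14). In p53-deleted against WT cells 3 were higher and 2 lower, with Mycn at -2.30, the interleukin-7 receptor gene Il7r at 1.93, Fbxo4 at 1.79 and Fbxo31 at -1.32. In double-deleted against p53-deleted cells 3 rose and 3 fell, with Notch3 at 2.40, Mycn at 2.15, Bmi1 at 1.87 and Il7r at -1.96. In double-deleted against Ezh2-deleted cells 3 of 15 were called, all lower, against 30.6% of all probes. In Ezh2-deleted against p53-deleted cells, on the shared slide, 2 of 15 were called, against 3.88%: Notch3 was 2.41 and Mycn 2.23 higher. In DN2 against DN1, 1 of 15 was called, against 1.32%: Notch3 was 2.24 higher at DN2. Fbxo31 was thus called lower than WT in all 3 deleted genotypes, which share the WT arrays.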

How the data were processed

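Total RNA (20 ng) was amplified, labelled with Cy3 and hybridised to 1-colour Agilent arrays; per the file headers, the deposited processed intensities come from Feature Extraction 10.7.1.1, with the grid annotated on mm9. The authors' deposited value table holds linear intensity values that equal the processed intensities divided by a constant per array, floored at 0.001; it served as an alternative. Spots flagged as outliers were left out, spots of a probe averaged, values divided by the array's 75th percentile and log2 taken. Probes were named by transcript accession through RefSeq (27656 of 55681 with 1 symbol, 28025 with none), since the files hold no gene name column; the gene's brightest probe describes it. Probes well above background on at least 2 of 14 arrays (31499) were fitted with limma 3.58.1 in R 4.3.3, genotype plus stage on the 12 non-leukemic arrays, with all 14 and a leukemia term for ETP-ALL, with Benjamini-Hochberg adjustment. With 1 array per genotype and stage, stages serve as the replicates of a genotype and genotypes as those of a stage; the number of arrays limits the precision. Members and gene lists, and the rule that at most 4 called genes per list and comparison are named by size of change, were chosen with earlier results of these data known. The pipeline was tested on simulated data. Tables and figures were made with Python 3.11.15, pandas 2.3.3 and matplotlib 3.10.9. Alternatives were 2 other scalings, the authors' table, 2 other filters, 1 probe per gene, slide as a block, single slides and leaving out each array.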

Additional observations from a re-analysis of the deposited data

Results flagged for a closer look

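In 4 probes of 4 genes the effect of Ezh2 deletion differed between cells without and with p53, by the test of that difference itself; that is 4 of 12 member probes, against 45.9% of all probes. The value is the double-deleted minus p53-deleted difference less the Ezh2-deleted minus WT difference. It was -1.10 for Ccnd3 probe A_51_P238448 (limma adjusted p = 0.0467), -1.77 for Cdk4 probe A_55_P1998188 (adjusted p = 0.0170), -1.86 for Rb1 (adjusted p = 0.0063) and -1.39 for Rbl1 probe A_51_P286665 (adjusted p = 0.0367). The brightest Ccnd3 and Cdk4 probes gave -0.95 and -0.82, the third Cdk4 probe -1.17 and the second Rbl1 probe -1.16, and none of these was called. As the p53-deleted and Ezh2-deleted arrays all lie on slide 2 and no array of the other groups does, interaction and slide cannot be told apart.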

How the results depend on the processing

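Counts of probes called moved by over 1.5 times under some settings. For double-deleted against WT cells the 2168 became 1316 scaled on probes detected on all arrays, 10709 with normexp, 684 with slide as a fixed block and 593 within slide 1. With normexp the other counts were 18423 for double-deleted against p53-deleted (9953), 18889 for double-deleted against Ezh2-deleted (9651, and 22923 with no filter), 387 for Ezh2-deleted against p53-deleted (1221, and 112 within slide 2), 1 for DN3 against DN2 (7) and 1703 for ETP-ALL (749, and 1406 with slide as a random block). DN2 against DN1 gave 169 with probes above background on at least 7 arrays, 706 within slide 1 and 2 within slide 2 (415). DN3 against DN2 gave 4 with no filter, 20 with at least 7 arrays, 4 with the fixed block and 0 within either slide.

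Member genes called in Ezh2-deleted against WT cells numbered 3, but 1 scaled on detected probes, 0 with normexp, 1 with no filter and 6 with the random block. In double-deleted against p53-deleted cells 2 became 1 scaled on detected probes. In double-deleted against WT cells 0 became 2 with normexp. In double-deleted against Ezh2-deleted cells 0 became 1 with normexp and 1 with the random block. In Ezh2-deleted against p53-deleted cells 1 became 0 scaled on detected probes, with normexp, with no filter, with either block and within slide 2. With normexp Ccnd1 was -0.90 in double-deleted against Ezh2-deleted cells (adjusted p = 0.00226), where the difference was 0.04; the cause was not tested.

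Leaving out each array in turn gave 501 to 2244 probes and 0 to 1 members for double-deleted against WT, 7125 to 11666 and 0 to 4 for Ezh2-deleted against WT, and 7852 to 11055 and 0 to 3 for p53-deleted against WT. It gave 5598 to 10628 and 0 to 2 for double-deleted against p53-deleted, 4690 to 10421 and 0 to 1 for double-deleted against Ezh2-deleted, and 352 to 1314 and 0 to 1 for Ezh2-deleted against p53-deleted. It gave 152 to 3290 and 0 to 3 for DN2 against DN1, 1 to 22 and 0 for DN3 against DN2, and 124 to 998 and 0 for ETP-ALL. Ccnd2 in Ezh2-deleted against WT cells lost its call without WT DN2 (0.93), Ezh2-deleted DN1 (0.86) or Ezh2-deleted DN3 (1.04). Ccnd1 in double-deleted against p53-deleted cells kept its call under all 7 alternatives that leave out no array (-2.41 to -1.64).

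An uncalled member difference had the other sign in 26 refits under other settings and in 62 refits without an array, counting each difference once per refit. The planned normexp on mean signals was not run because these files hold no such column; median signals were used in its place, a choice made after seeing the data. No paired analysis by animal was possible because the labels name no mouse for the non-leukemic arrays. The consensus correlation within slides was -0.12 over 12 arrays and -0.13 over 14. The dim arrays of slide 2 limit what can be measured of low genes such as Ccnd1 there.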

Other observations

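Over the 14 arrays the 3 genes whose levels ran most like each member's were ranked among 9951 named genes above background on every array. For Cdk4 they were Sord (Pearson r = 0.973), Zbed4 (0.966) and Cisd1 (0.964), and for Rbl1 they were Commd10 (0.97), Racgap1 (0.961), a gene of cell division, and Rnf26 (0.959). Ccnd3 ran most like Gabpb1 (0.95), Cdkn3 (0.938), a cell cycle phosphatase, and Rfwd3 (0.927), and Cdk6 like Rnaseh2b (0.946), Mrpl18 (0.94) and Nsmce2 (0.933). Rb1 ran most like Micu2 (0.958), Cdipt (0.949) and Sdccag8 (0.946), and Ccnd2 like Tnik (0.923), Arf3 (0.913) and Usp32 (0.901). The likeness was least close for Ccnd1, with Atf7ip (0.913), Klhl35 (0.876) and Il6ra (0.875), and for Rbl2, with Cflar (0.901), Clec2d (0.885) and Evi2a (0.829). The arrays share slides and brightness, so these values describe the 14 arrays only.

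From DN2 to DN3 the replication genes ran opposite ways in p53-deleted cells and in the genotypes with Ezh2 deleted. All 20 were higher at DN3 in p53-deleted cells (median 0.56), against 2 in double-deleted (median -0.12), 1 in Ezh2-deleted (median -0.46) and 14 in WT cells (median 0.17); each count rests on 1 pair of arrays, and the difference was not tested.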
